A study of Neurospora crassa with 4 samples.

Results

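The genes described here are those of *Neurospora crassa*, a filamentous fungus, whose transcripts were at least doubled when both subunits of a 3′ end processing complex had been deleted. A gene was taken into the set when the lower of its values in 2 mutant libraries was at least 2 times the higher of its values in 2 control libraries, and when its 4 values averaged 20 normalized counts or more. That rule chose 109 genes of the 7793 in the table, or 1.62% of the 6720 genes that reached the mean of 20. The same rule turned around, with the lower control value at least 2 times the higher mutant value, held for 59 genes or 0.878%. Because the rule used the comparison of mutant with control, the folds below describe how the 109 genes were picked and carry no test.

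The control was strain 1785-1, which carries the clock reporter csr-1::cbox-luciferase::barR in a MAT A background. The mutant was strain 2029, here ΔCFIm, in which cpsf5 (NCU09014) and cpsf6 (NCU02152) were each replaced by the hygromycin resistance marker hphR, with the same reporter at csr-1. The label of strain 2029 names no mating type. Conidia of both were grown for 72 hours at 25°C in constant light on cellophane over solid medium with 0.25% glucose and 0.17% arginine, and each genotype gave 2 libraries. Each genotype was 1 strain, so any other difference between the strains cannot be told apart from the 2 deletions.

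Cleavage factor I (CFIm) binds nascent pre-mRNA near its 3′ end and takes part in choosing where the transcript is cut and given its poly(A) tail. A gene with several poly(A) sites can make messages with different 3′ untranslated regions, a process called alternative polyadenylation. The sequencing primed from the poly(A) tail, so each read marks the 3′ end of 1 transcript and the count of a gene does not scale with its length. A change in a count can come from the amount of the message or from where its end falls relative to the annotated gene, and the counts alone do not part these.

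Control replicate 1 held 5572762 reads on genes and control replicate 2 held 6053869. ΔCFIm replicate 1 held 5923458 and ΔCFIm replicate 2 held 5860829. The deposited values had been scaled to 1 common total, so that 1 read was worth between 0.967 and 1.05 normalized counts. Both deleted genes were lower in ΔCFIm, but cpsf6 was not at 0 there. cpsf5 had 214 and 192 normalized counts in the controls and 2.96 and 0 in the ΔCFIm libraries, and cpsf6 had 141 and 160 in the control libraries and 25.7 and 25.96 in the ΔCFIm libraries, from 26 reads in each. The source of the remaining cpsf6 reads was not tested. Conidial markers summed to between 750592 and 760300 in the control libraries and between 730642 and 744184 in the ΔCFIm libraries, with 4 of 5 listed markers in the table. Most of that sum was the hydrophobin gene eas, at 545275 to 611475 over the 4 libraries, and the other markers were less even. con-8 had 64873 and 75140 in the controls and 34801 and 57359 in the ΔCFIm libraries, while con-10 had 89366 and 69319 in the controls and 52848 and 103957 in the ΔCFIm libraries. Markers of growing hyphae, also 4 of 5, summed to 102909 and 93536 in the control libraries and to 96744 and 90640 in the ΔCFIm libraries.

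Most members were weakly expressed in the control and reached a moderate level in ΔCFIm. The rule favours this, since a gene could reach the mean of 20 through its ΔCFIm values alone. The halved genes showed the reverse, with a median control mean of 203 and a median ΔCFIm mean of 55.7. The median member had a control mean of 47.0 normalized counts, against 253 over all 6720 genes averaging 20 or more, and a ΔCFIm mean of 179 against 253. The ratio of the lower ΔCFIm value to the higher control value, called the separation below, had a median of 2.61. It was from 2 to under 3 for 68 members, at least 3 for 41, at least 5 for 17, at least 10 for 8 and at least 20 for 4. The ratio of the 2 group means ran from 2.09 to 63.5 with a median of 3.59. On the log2(normalized count + 1) scale the median difference of the members was 1.80, and that of all 6949 genes tested was -0.01. The members took 0.219% and 0.207% of the reads on genes in the control libraries and 1.35% and 1.25% in the ΔCFIm libraries. Without mfa-1, the most abundant of them, the shares were 0.207% and 0.197% in the control libraries and 1.02% and 0.683% in the ΔCFIm libraries.

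**Figure D1:**
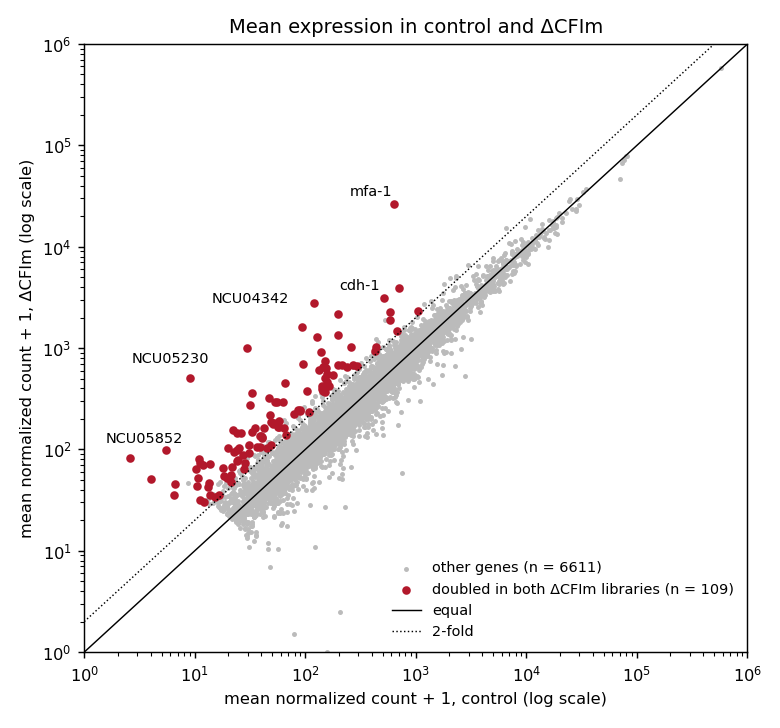
Mean normalized count + 1 of the 2 ΔCFIm libraries against that of the 2 control libraries, both on log axes, for the 109 doubled genes (red) and the 6611 other genes averaging 20 or more (grey). The solid line marks equal means and the dotted line a 2-fold difference. The red points lie above the 2-fold line by construction. Most of them sit to the left, with a median control mean of 47.0, which the rule favours.

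A call by limma, with adjusted p under 0.05 in the fit over all 6949 genes with a mean of at least 10, was made as higher in ΔCFIm for 4.62% of the genes tested. Of the 109 members 106 were among those calls and none was among the 3.38% called lower. On the recovered reads edgeR called 109 members higher, against 6.13% of genes higher and 4.32% lower, and DESeq2 103, against 4.35% and 2.91%. These counts restate the rule and are read no further. A member just inside the threshold was NCU04784, at 728 and 633 normalized counts in the controls and 1506 and 1460 in the ΔCFIm libraries, a separation of 2.01. NCU09868 also had a separation of 2.01 and NCU01231 of 2.02. Just outside it were NCU07279 with 1.997, hgt-1 with 1.98 and hak-1 with 1.97. The gene hgt-1, at 7653 and 5532 in the control libraries and 15126 and 15465 in the ΔCFIm libraries, was thus left out by a small margin. A further 126 genes met the 2-fold condition but had means under 20.

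The largest separation was that of NCU05230, on linkage group IV from 5677785 to 5679468 in the NC12 assembly. It had 6.30 and 9.67 normalized counts in the control libraries, from 6 and 10 reads, and 660 and 354 in the ΔCFIm libraries. The ratio of its means was 63.5 and the groups were 36.6-fold apart at their nearest values. Its mean was 7.98 ± 2.38 (SD, n = 2) in the control and 507 ± 217 (SD, n = 2) in ΔCFIm, where the libraries differed 1.87-fold.

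The second was mfa-1 (NCU16992), on linkage group V from 3396270 to 3397430. It encodes the precursor of the peptide pheromone that mat a strains make, a short lipid-modified peptide that draws the receptive hyphae of the opposite mating type. Its value was 677 and 587 in the control libraries and 19292 and 33258 in the ΔCFIm libraries, a ratio of means of 41.6. Both ΔCFIm libraries were more than 28-fold above both control libraries, and mfa-1 was the member with the highest mean over the 4 libraries, 13454.

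Other genes of mating were read beside mfa-1 because the label of the mutant leaves its mating type open. The mating type gene matA-1, which defines MAT A strains, had 152 and 160 normalized counts in the controls and 0 in both ΔCFIm libraries. The pheromone precursor gene of MAT A strains, ccg-4, had 57.8 and 99.6 in the control libraries and 0.988 and 0 in the ΔCFIm libraries, that is 1 read in all. In the ΔCFIm libraries both A-specific genes were thus at or near 0 while the a-specific precursor gene was high. The pheromone receptor genes pre-1 and pre-2 were listed at 0 in all 4 libraries. For mfa-1 a difference in mating type between strains 1785-1 and 2029 and the deletion of CFIm cannot be told apart. The sum over the 9 sexual and mating markers in the table, mfa-1 among them, was 10562 and 16325 in the control libraries and 24715 and 47980 in the ΔCFIm libraries. Of the ΔCFIm sums 19292 and 33258 were mfa-1, which the rule chose on these values. The sum therefore shows no rise of the other markers.

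In the list of 10 mating and sexual development genes, 8 could be tested and mfa-1 was the member. Of the other 7, sub-1, a transcription factor gene needed for fruiting body formation, rose, matA-1 fell, and 5 did not pass. Of all tested genes outside the members 3.14% rose and 3.44% fell by limma. The value of sub-1 was 189 and 160 in the control libraries and 353 and 269 in the ΔCFIm libraries, a log2 difference of 0.82 ± 0.20 (SE) with a limma adjusted p of 0.024. The paper shows sub-1 as an example of a gene whose several poly(A) peaks collapse to a single peak in the mutant. The part of that change in its count was not tested. The fruiting body gene poi-2 was at 9159 and 14924 in the control libraries and 4757 and 14151 in the ΔCFIm libraries, groups that overlap.

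Several members with a gene symbol belong to the breakdown of plant cell walls. When *Neurospora* grows on wood or straw it secretes cellobiohydrolases, which release cellobiose from cellulose ends, lytic polysaccharide monooxygenases (the gh61 genes), which cut cellulose chains by oxidation, cellobiose dehydrogenase, which passes them electrons, and xylanases. The transcription factor CLR-2 is needed for the expression of cellulase genes, and glucose represses them. The members included the enzyme genes cbh-1, cdh-1, gh61-1, gh61-2, gh61-6, gh61-9 and gh11-1 and the regulator gene clr-2.

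The cellobiose dehydrogenase gene cdh-1 (NCU00206, linkage group III, 3004156 to 3008108) had 496 and 526 normalized counts in the controls and 4345 and 1861 in the ΔCFIm libraries. Its means differed 6.07-fold, and the ΔCFIm libraries differed from each other 2.33-fold. The cellobiohydrolase gene cbh-1 (NCU07340, linkage group IV, 4311049 to 4314145) had 420 and 756 in the control libraries and 2871 and 1612 in the ΔCFIm libraries. Its means differed 3.81-fold, with both genotypes spread by about as much as each other on a log scale.

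The 4 gh61 members were low in the control. For gh61-2 (NCU07760) the control libraries gave 7.35 and 12.6 and the ΔCFIm libraries 96.8 and 61.9, a 7.97-fold difference in means. For gh61-1 (NCU02240) the values were 12.6 and 7.73 in the control libraries and 98.8 and 45.9 in the ΔCFIm libraries. The most abundant of the family, gh61-6 (NCU03328), had 142 and 165 in the control libraries and 828 and 431 in the ΔCFIm libraries, and gh61-9 (NCU05969) had 13.7 and 21.3 in the control libraries and 60.3 and 47.9 in the ΔCFIm libraries. In each of the 4 the first ΔCFIm library was the highest of all libraries and the second ΔCFIm library came next.

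The xylanase gene gh11-1 (NCU02855) had 19.95 and 22.2 in the control libraries and 229 and 79.9 in the ΔCFIm libraries. Its ΔCFIm libraries differed 2.87-fold, more than those of any other member named here. The regulator gene clr-2 (NCU08042) had 10.5 and 11.6 in the control libraries and 24.7 and 34.0 in the ΔCFIm libraries, from 25 and 34 reads, and went against the others in that its second ΔCFIm library was the higher.

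**Figure D2:**
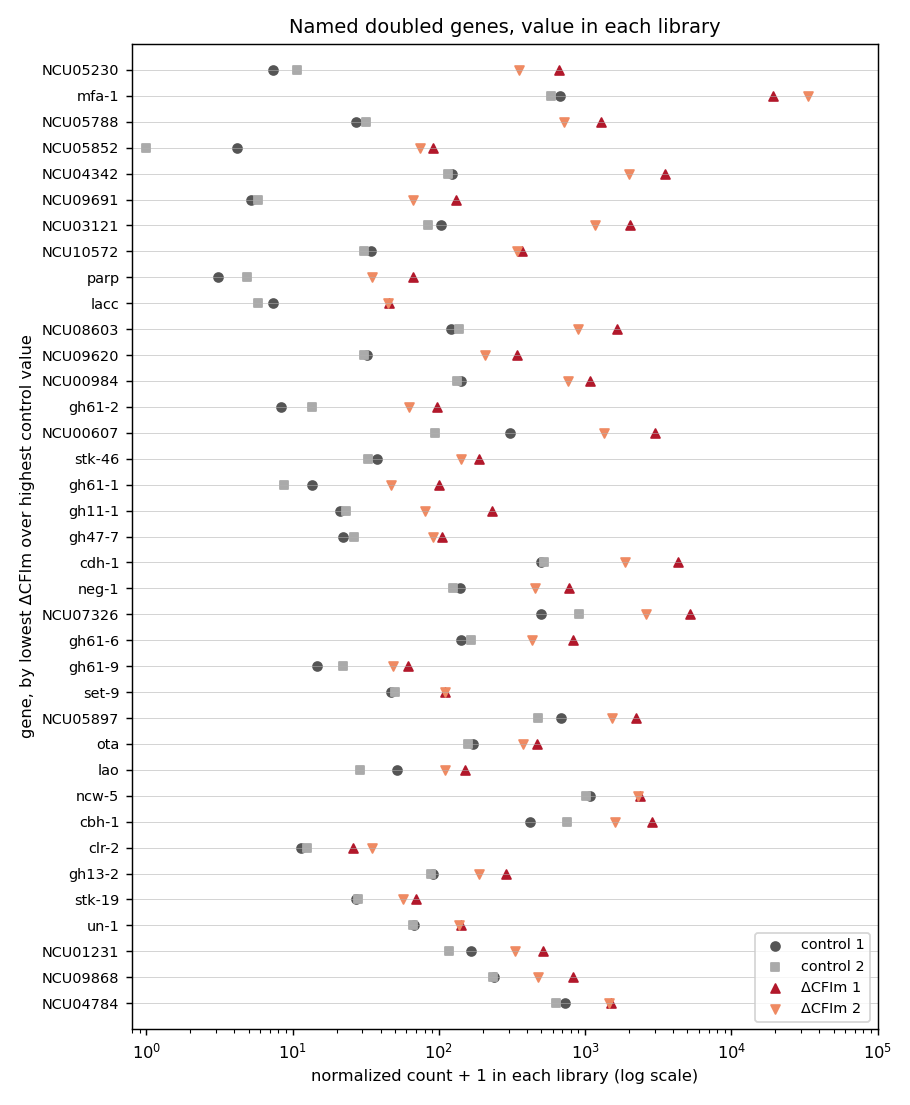
Normalized count + 1 in each of the 4 libraries, on a log axis, for the 37 members named by rule, ordered from the largest separation at the top (NCU05230, 36.6) to the smallest (NCU04784, 2.01). Grey symbols are the control and red or orange symbols the ΔCFIm libraries. No gene has overlapping groups, which the rule requires, and the orange triangles of ΔCFIm replicate 2 lie left of the red ones of replicate 1 for most genes.

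Glycoside hydrolase genes outside the members could be tested, since the rule did not choose them as higher. Of the 58 genes with a gh symbol in the table, 54 had a mean of at least 10 and 7 were members: the 5 named above that carry such a symbol, gh13-2 and gh47-7. Of the 47 others, 9 rose, 2 fell and 36 did not pass by limma with adjusted p under 0.05, so 19.1% rose where 3.14% of all tested genes outside the members did. Their median log2 difference was 0.11, against -0.02 over all tested genes outside the members. The 9 were gh11-2, gh45-1, gh61-7, gh1-1, gh18-6, gh3-4, gh31-3, gh16-1 and gh18-5.

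The second xylanase gene of family 11, gh11-2 (NCU07225), had 368 and 679 normalized counts in the controls and 2567 and 1255 in the ΔCFIm libraries. Its log2 difference was 1.84 ± 0.31 (SE), with a limma adjusted p of 0.0031. The endoglucanase gene gh45-1 (NCU05121) had 29.4 and 23.2 in the control libraries and 116 and 54.9 in the ΔCFIm libraries, a log2 difference of 1.57 ± 0.34 with a limma adjusted p of 0.014. The family 61 gene gh61-7 (NCU00836) had 107 and 136 in the control libraries and 445 and 224 in the ΔCFIm libraries, a log2 difference of 1.38 ± 0.28 with a limma adjusted p of 0.0080. These missed the 2-fold rule, with separations of 1.85, 1.87 and 1.64.

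Not all genes that rose act on cellulose or xylan. Family 18 holds chitinases, which act on the chitin of fungal walls, and gh18-6 had 232 and 223 in the control libraries and 598 and 456 in the ΔCFIm libraries. The 2 genes that fell were gh5-1 (NCU00762) and gh76-7 (NCU03770), which are not sorted here by what they act on. For gh5-1 the values were 128 and 107 in the control libraries and 50.4 and 29.96 in the ΔCFIm libraries, a log2 difference of -1.57 ± 0.28 (SE) with a limma adjusted p of 0.0038. For gh76-7 they were 359 and 369 in the control libraries and 183 and 174 in the ΔCFIm libraries.

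The most abundant gh gene to miss the threshold with both ΔCFIm libraries above both controls was gh6-3 (NCU07190), of a family that holds cellobiohydrolases. It had 9829 and 11556 in the control libraries and 25390 and 12489 in the ΔCFIm libraries, with a limma adjusted p of 0.13. Its second ΔCFIm library was close to the control. The first ΔCFIm library was above the second for 37 of the 47 gh genes outside the members. Without ΔCFIm replicate 2 the number of these 47 that rose was 14, while that over all genes tested went from 321 to 674, and without ΔCFIm replicate 1 it was 8. The number that fell was 4 without ΔCFIm replicate 2 and 5 without ΔCFIm replicate 1.

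**Figure D3:**
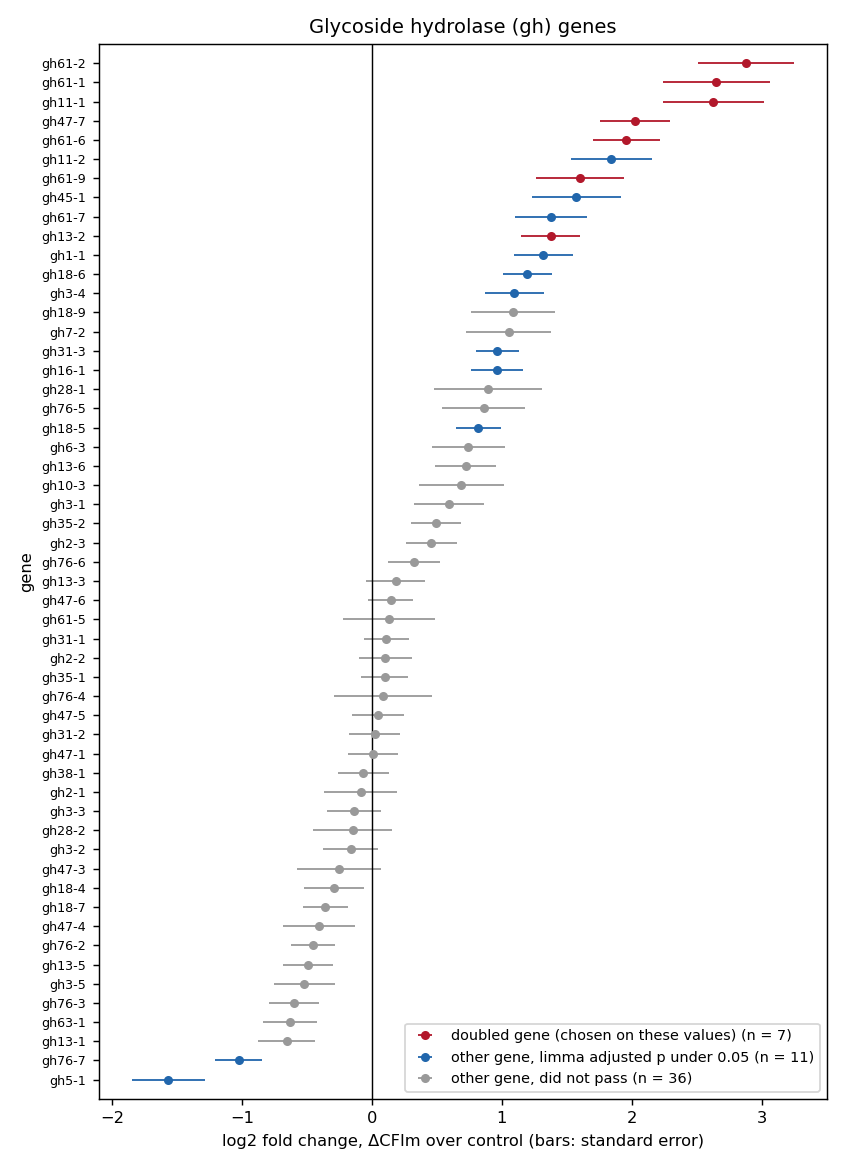
Difference between ΔCFIm and control on the log2(normalized count + 1) scale, with its standard error from limma, for the 54 tested genes with a gh symbol (n = 2 libraries per genotype). Red points are the 7 members, which were chosen on these values, blue points the 11 others that passed and grey points the 36 that did not. The blue points to the right of 0 are the 9 that rose, and the 2 to its left are gh76-7 and gh5-1.

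Regulators, transporters and cellobiose enzymes of cellulose use made a list of 11, drawn up after the values had been seen. It holds cdh-1, cbh-1 and clr-2, and of the other 8 only vib-1 passed by limma, as higher in ΔCFIm. The transcription factor gene vib-1, which acts upstream of clr-2, had 678 and 592 in the control libraries and 1234 and 926 in the ΔCFIm libraries, a log2 difference of 0.75 ± 0.19 (SE) with a limma adjusted p of 0.026. The xylanase regulator gene xlr-1 had 183 and 152 in the control libraries and 302 and 238 in the ΔCFIm libraries, with a limma adjusted p of 0.056. The carbon repressor gene cre-1 was at 864 and 965 in the control libraries and 885 and 847 in the ΔCFIm libraries, and clr-1, the partner of clr-2 in cellulase expression, at 350 and 290 in the control libraries and 327 and 287 in the ΔCFIm libraries. The cellodextrin transporter gene cdt-2 had 758 and 1025 in the control libraries and 2020 and 1148 in the ΔCFIm libraries, with a limma adjusted p of 0.068. On the recovered reads edgeR's quasi-likelihood test called 3 of the 8 higher, and DESeq2 2. Limma called 3.14% of all tested genes outside the members higher. Over all tested genes, members included, edgeR called 6.13% higher and DESeq2 4.35%. As the list was drawn up after the values had been seen, its counts are read no further.

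A second set of named members acts on the fungus's own wall or on other glycans. The gene neg-1 (NCU04395), which encodes an endo-β-1,6-glucanase, had 138 and 125 in the control libraries and 770 and 454 in the ΔCFIm libraries, a 4.67-fold difference in means. The family 47 mannosidase gene gh47-7 (NCU02091) had 21.0 and 25.1 in the control libraries and 104 and 89.9 in the ΔCFIm libraries. The family 13 gene gh13-2 (NCU09805), a family that holds amylases, had 90.3 and 88.0 in the control libraries and 289 and 188 in the ΔCFIm libraries. The gene ncw-5 (NCU00716), which encodes a non-anchored cell wall protein, was among the most abundant members, at 1080 and 1012 in the control libraries and 2362 and 2303 in the ΔCFIm libraries. The replicates of ncw-5 lay close together in both genotypes. None of the 16 other ncw and acw wall protein genes passed in either direction by limma, edgeR or DESeq2, and at an unadjusted limma p under 0.05 there were 2 higher and 1 lower.

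Among the enzymes of other pathways, lacc (NCU04528), a laccase gene, had 6.30 and 4.83 in the control libraries and 44.5 and 43.9 in the ΔCFIm libraries, so that both genotypes had close replicates. The gene parp (NCU08852), which encodes a poly(ADP-ribose) polymerase, had 2.10 and 3.87 in the control libraries and 65.2 and 34.0 in the ΔCFIm libraries. Only 6 control reads stood against 100 ΔCFIm reads for parp, which gives a ratio of 16.4 with a 95% counting interval of 7.29 to 45.9. That interval leaves out the spread between replicates and the choice of parp on these values. The members lao and ota act on amino acids. The L-amino acid oxidase gene lao (NCU01066) had 50.4 and 28.0 in the control libraries and 150 and 109 in the ΔCFIm libraries, and the ornithine aminotransferase gene ota (NCU00194) had 169 and 158 in the control libraries and 469 and 374 in the ΔCFIm libraries. The medium held arginine, which is broken down through ornithine. The other 3 genes listed for amino acid breakdown did not pass by limma, edgeR or DESeq2, and none had an unadjusted limma p under 0.05.

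The remaining members with a gene symbol code for regulators. The serine/threonine kinase genes stk-46 (NCU06638) and stk-19 (NCU02245) were members. stk-46 had 36.8 and 31.9 in the control libraries and 187 and 140 in the ΔCFIm libraries, and stk-19 had 26.3 and 27.1 in the control libraries and 69.2 and 55.9 in the ΔCFIm libraries. Of the 40 other stk genes tested, stk-12 and stk-22 fell by limma and none rose by limma, edgeR or DESeq2, with 3 higher at an unadjusted limma p under 0.05. The SET-domain gene set-9 (NCU08733) had 46.2 and 49.3 in the control libraries and 110 and 110 in the ΔCFIm libraries. Of the 7 other SET-domain genes tested 1 rose by limma, edgeR and DESeq2, set-2, which encodes a histone methyltransferase. Its value was 19.95 and 46.4 in the control libraries and 86.9 and 85.9 in the ΔCFIm libraries, a limma adjusted p of 0.020. The gene set-7, which encodes the methyltransferase of lysine residues on histone H3 in Polycomb repression, was called lower by edgeR but not by limma or DESeq2, at 107 and 124 in the control libraries and 65.2 and 68.9 in the ΔCFIm libraries, with an edgeR adjusted p of 0.038 and a limma adjusted p of 0.051. The gene un-1 (NCU08346), also called mus-58 and related to the checkpoint kinase Chk1, had 66.2 and 65.7 in the control libraries and 140 and 136 in the ΔCFIm libraries, the smallest ratio of means among the members at 2.09. Of 26 other genes of DNA damage and checkpoints, mus-53 rose and mus-42 fell by limma, edgeR and DESeq2, and edgeR also called mus-21 and mus-51 higher. The share that rose by limma, 3.85%, was near the 3.14% of all tested genes outside the members, of which 3.44% fell. The few calls in the kinase, SET-domain and DNA damage lists are read no further.

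The conidial, light and quinic acid lists held no member. Of the 18 conidial and clock-controlled genes tested, ccg-4 fell and none rose by limma, while edgeR and DESeq2 each called 1 of them higher and 2 were higher at an unadjusted limma p under 0.05. None of the 10 light-induced genes and none of the 5 genes of the quinic acid cluster passed by limma, edgeR or DESeq2. At an unadjusted limma p under 0.05 there was 1 light-induced gene, higher, and no gene of the quinic acid cluster. Of 4 heterokaryon incompatibility genes tested het-6 rose by limma and edgeR but not by DESeq2, at 8.40 and 23.2 in the control libraries and 49.4 and 42.9 in the ΔCFIm libraries. Over all tested genes outside the members limma called 3.14% higher and 3.44% lower, and the few calls in these small lists are read no further.

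The other 88 members have no gene symbol in the annotation, and several of the strongest are among them. NCU05788, an annotated gene of 615 bases on linkage group VII, had 26.3 and 30.9 normalized counts in the controls and 1276 and 722 in the ΔCFIm libraries. NCU04342 on linkage group IV had 122 and 115 in the control libraries and 3521 and 1980 in the ΔCFIm libraries, a 23.2-fold difference in means. NCU03121 on linkage group I had 102 and 83.1 in the control libraries and 2042 and 1160 in the ΔCFIm libraries. In all 3 the ΔCFIm libraries differed from each other by less than 2-fold and stood more than 11-fold above the control.

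NCU10572, near the end of linkage group IV, had 33.6 and 29.97 in the control libraries and 370 and 344 in the ΔCFIm libraries, with replicates close in both genotypes. NCU05852 had 3 reads in control replicate 1 and none in control replicate 2, and 92 and 73 reads in the ΔCFIm libraries. The ratio of its summed reads was 54.3 with a 95% counting interval of 18.2 to 266, with the same limits as for parp. NCU09691, at 4.20 and 4.83 in the control libraries and 130 and 65.9 in the ΔCFIm libraries, was similarly low in the control. NCU07326 was the most abundant member without a symbol, at 500 and 903 in the control libraries and 5201 and 2608 in the ΔCFIm libraries. NCU00607, at 304 and 92.8 in the control libraries and 3024 and 1341 in the ΔCFIm libraries, had the control libraries far apart. The members NCU08603, NCU09620 and NCU00984 had ratios of means of 9.96, 8.88 and 6.72.

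The 2 ΔCFIm libraries did not carry the members equally. ΔCFIm replicate 1 was the higher for 91 of the 109 members, 83.5%, and for 4101 of the 6611 other genes averaging 20 or more, 62.0%. The median log2 ratio of replicate 1 to replicate 2 was 0.32 for the members and 0.10 for the other genes. In the control the same ratio had a median of 0.09 for the members and 0.0013 for the others. A difference of at least 1.5-fold in favour of ΔCFIm replicate 1 was found for 34 members, 31.2%, and for 528 other genes, 7.99%. The opposite was found for 3 members, mfa-1, NCU00380 and NCU04170. Among the 59 genes that were at least halved, ΔCFIm replicate 1 was the higher for 30.

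The imbalance was found at every size of change. ΔCFIm replicate 1 was the higher for 15 of the 17 members with a separation of at least 5, for 23 of the 24 from 3 to under 5, and for 53 of the 68 from 2 to under 3. Applied to ΔCFIm replicate 1 alone against both controls, the rule chose 226 genes, 104 of them members, and applied to ΔCFIm replicate 2 alone it chose 121, of which 102 were members. With either control library alone it chose 157, all 109 members among them. Some markers of development differed between the ΔCFIm replicates in the other direction, and replicate 1 was the lower for con-8 and con-10, given above, and for poi-2, at 4757 against 14151. The conidial marker con-6 had 31517 in replicate 1 and 37593 in replicate 2, and eas, the higher in replicate 1, had 611475 and 545275. The part of these differences in the values of the members was not tested.

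**Figure D4:**
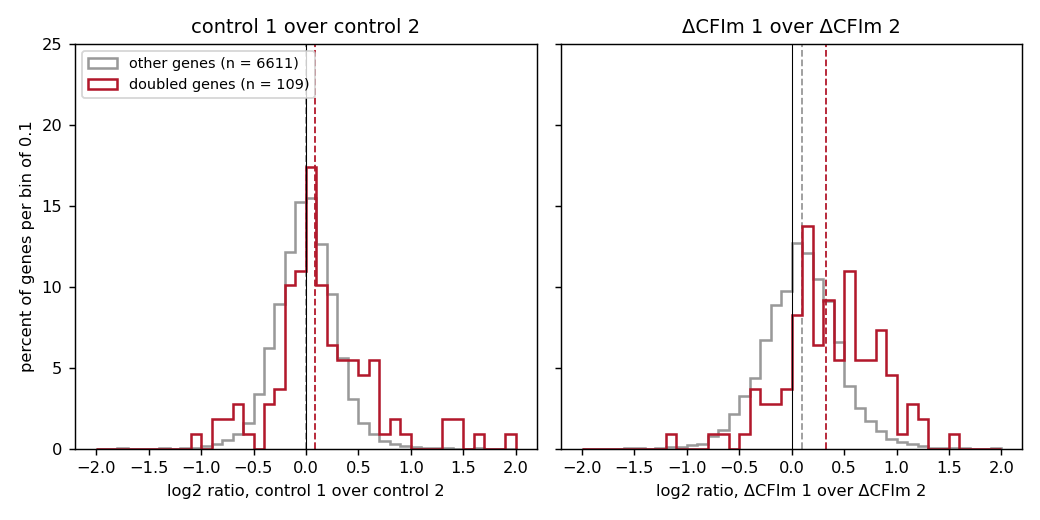
Distribution of the log2 ratio of replicate 1 to replicate 2 in the control (left) and in ΔCFIm (right), as the percent of genes in each bin of 0.1, for the 109 members (red) and the 6611 other genes averaging 20 or more (grey). Dashed lines are medians, and values beyond 2 in size are drawn in the last bin. In ΔCFIm the red distribution lies to the right, with a median of 0.32 against 0.10.

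The members were spread over the 7 linkage groups. Linkage group V held 25 members, 22.9% of them, where it held 17.0% of the genes averaging 20 or more, and linkage group I held 24, 22.0% against 25.7%. A larger share of them than of all genes lay near a chromosome end. Within 50 kb of the outermost annotated gene boundary of a linkage group there were 8 members, 7.34%, against 1.79% of all genes averaging 20 or more and 1.69% of the halved genes. Within 100 kb there were 10 members, 9.17%, against 3.60%. The 100 kb distance was chosen after the data had been seen, and the 50 kb distance was not planned beforehand either. The 8 were NCU07143, NCU11291, NCU05899, NCU17053, NCU09620, NCU10572, NCU05897 and NCU09910, which take in an end of each of the 7 linkage groups. NCU05899 and NCU05897 lie at the same end of linkage group VII. NCU07143 is the first annotated gene of linkage group VI, and it had 156 and 158 in the control libraries and 590 and 324 in the ΔCFIm libraries. NCU11291, on linkage group III, had 15.8 and 9.67 in the control libraries and 78.1 and 62.9 in the ΔCFIm libraries. These shares are descriptions of a set chosen on expression, with no test.

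Some members stood side by side, and how many pairs a set of this size would give by position alone was not computed. There were 3 pairs with no other gene of the table between them: NCU04543 with NCU04542, 668 bases apart, NCU09691 with NCU09689, 1748 bases apart, and NCU05897 with NCU05899, 13707 bases apart. In the first pair NCU04543 had 137 and 152 in the control libraries and 414 and 343 in the ΔCFIm libraries, and NCU04542 had 286 and 296 in the control libraries and 687 and 630 in the ΔCFIm libraries. The annotated length had a median of 2151 bases over the members and 2440 over all genes averaging 20 or more. An overlap with another annotated gene was found for 18 members, 16.5%, against 29.0%.

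The genes next to the members were examined because a shifted transcript end could move reads from one gene to the next. Neighbours that met the rule were themselves members. Those tested had thus failed the rule in these same libraries, as had the genes outside the members they are set beside. The members had 211 different neighbours outside the set, of which 174 could be tested. By limma with adjusted p under 0.05, 16 of them rose, 9.20% against 3.14% of all tested genes outside the members, and 7 fell, 4.02% against 3.44%. Their median log2 difference was 0.07. Of the 88 within 1000 bases, 7 rose and 3 fell, and of the 86 farther away 9 rose and 4 fell. Of the 16 that overlapped a member, none rose and 1 fell by limma, with 2 higher and 2 lower at an unadjusted p under 0.05, and edgeR called none higher and 2 lower.

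The count of neighbours that rose depended on the libraries used. It was 31 without ΔCFIm replicate 2 and 10 without ΔCFIm replicate 1, where 674 and 307 of all genes tested rose. The count that fell was 3 without control replicate 2 and 15 without ΔCFIm replicate 1, where 121 and 406 of all genes tested fell.

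The neighbour of the member with the largest separation fell. NCU05229 begins 12 bases from NCU05230, on linkage group IV from 5679481 to 5680940. It had 602 and 458 normalized counts in the controls and 236 and 269 in the ΔCFIm libraries, a log2 difference of -1.06 ± 0.19 (SE) with a limma adjusted p of 0.0042. The values of NCU05230 and NCU05229 added together were 608 and 468 in the control libraries and 896 and 622 in the ΔCFIm libraries, groups that do not overlap but whose means differ only 1.41-fold, against 63.5-fold for NCU05230 alone. On its other side, 977 bases away, NCU05231 rose from 104 and 88.9 in the control libraries to 172 and 173 in the ΔCFIm libraries.

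A second such pair was NCU05243 and NCU05244, whose annotations overlap by 86 bases. The member NCU05243 had 48.3 and 47.4 in the control libraries and 214 and 153 in the ΔCFIm libraries, and NCU05244 fell from 258 and 226 in the control libraries to 167 and 123 in the ΔCFIm libraries, with a limma adjusted p of 0.042. Their sums were 307 and 274 in the control libraries and 381 and 276 in the ΔCFIm libraries, a 1.13-fold difference in means. In the third, NCU06655 with NCU10237 at 656 bases, the sums were 203 and 227 in the control libraries and 156 and 145 in the ΔCFIm libraries. The table holds no positions of the transcript ends, so whether reads passed from one gene to the other was not tested.

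**Figure D5:**
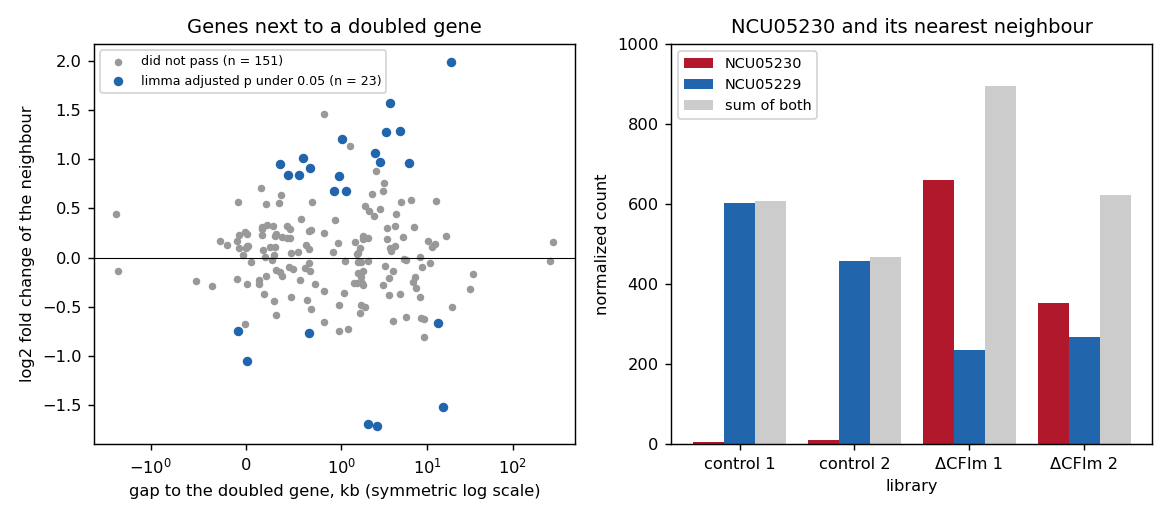
Left, log2 difference between ΔCFIm and control of the 174 tested neighbours of members against the gap in kb (symmetric log axis, negative where the genes overlap), with the 23 that passed in blue. Right, normalized counts of NCU05230, its neighbour NCU05229 and their sum in each library, where the sum goes from 608 and 468 in the control libraries to 896 and 622 in the ΔCFIm libraries.

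Other members had a neighbour that rose. Next to mfa-1, at 439 bases, NCU01258 rose from 591 and 547 in the control libraries to 922 and 1124 in the ΔCFIm libraries, and in both genes the second ΔCFIm library was the higher. Next to NCU04342, at 3316 bases, the ergothioneine synthesis gene egt-1 rose from 2044 and 1511 in the control libraries to 5077 and 3565 in the ΔCFIm libraries, with a limma adjusted p of 0.0026. The glycoside hydrolase genes gh45-1 and gh16-1, already counted above, were neighbours of the members NCU05123 and NCU01349. A neighbour that fell strongly without being close was NCU05157, 2635 bases from the member NCU05159, at 1512 and 1352 in the control libraries and 372 and 507 in the ΔCFIm libraries.

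Few members were among the genes that the study had listed with several poly(A) peaks. The study's table holds 1447 genes, 21.5% of those with a mean of at least 20, and 5 members, 4.59%. Low expression goes with absence from that table. When the 6720 genes were ranked by mean and cut into 4 groups of 1680, 53 of the 109 members were in the lowest group, where 0.833% of all genes and none of the members were listed. In the next group none of 19 members was listed against 15.5% of all genes. In the one above 2 of 22 members, 9.09%, were listed against 30.1%, and in the highest 3 of 15 members were, against 39.7%. The lists were made from the same libraries, so they are not independent of the counts.

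Of the 5 listed members, 3 were placed by the study among genes with altered poly(A) peaks, as were 471 of the 1447 listed genes. That is 2.75% of the 109 members and 7.01% of the 6720 genes averaging 20 or more. NCU00607 was in its list of moved peaks, and NCU04342 and NCU02026 in its list of genes whose peaks expanded in the mutant. NCU02026 had 140 and 160 in the control libraries and 395 and 341 in the ΔCFIm libraries. The other 2, NCU00311 and NCU01629, had several peaks with no listed alteration. NCU00311 was at 423 and 432 in the control libraries and 914 and 972 in the ΔCFIm libraries, with replicates close together in both genotypes.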

How the data were processed

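Libraries were made with a strand-specific 3′ end kit. Per the study's methods, reads were aligned with STAR to the NC12 genome and counted per gene with HTSeq, and the authors then normalized the deposited values by library size. The deposited signal of each library was 1 factor times a whole read count: 100% of values divided into whole reads (tolerance 0.001 reads). The strand setting of the counting is not given in the sources used here, so reads of overlapping genes may be shared. All 109 members passed the filter on low values. Differences were tested with limma 3.58.1 (two-sided, eBayes with a trend, R 4.3.3) on log2(normalized count + 1), which understates changes of low genes, over 6949 genes with a mean of at least 10, with Benjamini-Hochberg adjustment. With 2 libraries per genotype, p-values rest on the spread between these libraries, which eBayes draws towards a trend over all genes tested. Alternatives were edgeR 4.0.16 (quasi-likelihood) and DESeq2 1.42.0 on recovered reads, other pseudocounts (0.1, 5), filters and scalings, a replicate block and each library left out. Calculations were tested on simulated data. Gene symbols and coordinates came from RefSeq's NC12 annotation, which matched 7792 loci. Members and lists were chosen with earlier results of these data known, and 6 lists were drawn up after values were seen. Members named in the text are those with the 10 largest separations among means of at least 50, the 10 highest means, a gene symbol, at most 3 reads in each control library, or the 3 separations nearest the threshold on either side; NCU00311, NCU02026 and members described by position or by a neighbour were chosen after their values were seen. Sequences, strand and gene products were not analysed here. Counting intervals (95%) cover counting error of reads summed over replicates only, and not the choice of these genes on the same values.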

Additional observations from a re-analysis of the deposited data

How the results depend on the processing

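The set itself moved with the fold required: at least 1.5 times gave 263 genes and at least 3 times 41. With 1 library left out of the rule, which loosens the 2-fold condition, it held 121 to 226 genes. Quantile normalization of the deposited values gave 110 genes, 107 of them members, and median-of-ratios scaling 114, all 109 members among them. Of all genes tested 321 rose and 235 fell. With no filter on low values the counts were 17 and 13 and 1 member was called, and the cause was not tested. With 1 library left out 217 to 674 rose and 121 to 442 fell, both highest without ΔCFIm replicate 2. On recovered reads edgeR called 426 higher and 300 lower, and DESeq2 302 and 202. Neighbours that rose numbered 16, or 9 to 31 with a library left out, and those that fell 7, or 3 to 15. Over the lists drawn up first, 11 genes outside the members rose, or 10 to 18 with a library left out, and 4 fell, or 4 to 12. The labels do not say that equal replicate numbers mark a shared culture or day, and deviations of equal numbers correlated across genes with Pearson's r of 0.14 and Spearman's rho of 0.16. With a replicate block in the limma fit 506 genes rose and 384 fell, 107 members were called higher, 27 neighbours rose and 13 fell, and 7 listed genes fell. Depth limits the members with few control reads: a count of 0 allows up to 3 reads, or 2.90 to 3.15 normalized counts. Of 296 log2 differences of the 37 members named by rule under the alternatives, whose direction the rule fixes, 12 moved by more than the spread between replicates, all with pseudocounts of 0.1 or 5. Leaving out 1 of 2 replicates cannot shift a difference by more than that spread, so those alternatives could not be counted as moved. For gh11-1 the log2 difference was 2.63, and it was 1.87 without ΔCFIm replicate 1 and 3.38 without ΔCFIm replicate 2.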

Other observations

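Beyond the members, 122 genes met the rule when ΔCFIm replicate 1 was used without replicate 2, and 19 when replicate 2 was used without replicate 1. The most abundant of the first kind was gh6-3, which the report describes among the glycoside hydrolase genes. The glucoamylase gene gla-1 (NCU01517), which acts on starch, was another. It had 1176 and 1202 normalized counts in the controls and 3131 and 2254 in the ΔCFIm libraries, and it rose with a log2 difference of 1.16 ± 0.19 (SE) and a limma adjusted p of 0.0022. NCU10040 had 1941 and 2124 in the control libraries and 7009 and 2855 in the ΔCFIm libraries, with a log2 difference of 1.14 ± 0.31 and a limma adjusted p of 0.037. NCU03600 had 2264 and 2332 in the control libraries and 7095 and 3285 in the ΔCFIm libraries. All were picked on these same values, so the limma p-values given for them are no independent support. Both ΔCFIm libraries were above both control libraries for these genes. That the second was nearer to the control follows from how the genes were chosen.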
